A study of Mus musculus with 212 samples.

Results

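Hand1 and Hand2 were 2 of the 42 TaqMan assays, 1 assay each, that were read by microfluidic quantitative PCR in single mouse cells. They were chosen by gene name and followed through all 7 deposited tables, in 21 named sets of 5 to 72 cells. The tables held 200 cells, of which 8 repeated another cell in every value, so that 192 cells were distinct. Hand1 was detected in 83 and Hand2 in 170 of these 192 cells, and 73 cells carried both transcripts.

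The HAND proteins are basic helix-loop-helix transcription factors that bind DNA as dimers with other helix-loop-helix proteins and act during heart formation. In the mouse embryo Hand1 is known from lateral and extraembryonic mesoderm and from the outer curvature of the future left ventricle. Hand2 is known from the second heart field, the right ventricle and the outflow tract, and also from endocardium, epicardium and neural crest derivatives. Nkx2.5, Gata4, Tbx5, Mef2C and Isl1 encode other transcription factors of the developing heart, and Mesp1 one of nascent cardiac mesoderm.

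The study compared cardiac cells from differentiating mouse embryonic stem (ES) cells, from embryos and from hearts. The reference table held 5 cells each under the names CPC, CM, SMC, FB, EDC and ES. In the D5-D8 table there were 6 cells of each of D5, D6, D7 and D8, and in the D23-D29 table there were 10 of each of D23 and D29. In the E7.5-E10.5 table there were 6 cells of each of E7.5, E8.5, E9.5 and E10.5. A separate E10.5 table held 72 cells, and an atrial and a ventricular table held 5 neonatal and 10 adult cells each. Genotype, strain, treatment, sorting markers and the animals or cultures of origin were not given in the sources used here, and the exact age of the neonatal and adult hearts was not given either. With no animal or culture named, each set counted as 1 sample, so no test between sets was made, and every SD below is the spread between cells.

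Several labels went against the tables. The sample titles and sources placed the D5-D8 cells in the embryo and the E7.5-E10.5 cells in late ES cell cultures, and the titles called the D23-D29 cells early. Sets are therefore named here as the tables and their cell names have them, and the words culture and embryo below rest on those names. All 6 E10.5 cells of the stage series recurred in the 72-cell table, and the first 2 CM cells were D29 cells. Expression is given as 25 minus the quantification cycle (Ct), so that 0 means not detected and each cycle more stands for a doubling of template if PCR was fully efficient. Levels of Hand1 and of Hand2 are not set against each other, because their assays may differ in efficiency. A difference between sets counted as called from 1 cycle upwards. The cardiomyocyte assay Tnnt2-1 was detected in 30 of 30 heart cells, the ventricular assay Myl2 in 15 of 15 ventricular and 1 of 15 atrial cells, and the endothelial assay Cdh5 in 5 of 5 EDC cells. Tnnt2-1 and Myl2 were undetected in all 5 CPC cells.

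**Figure D1:**
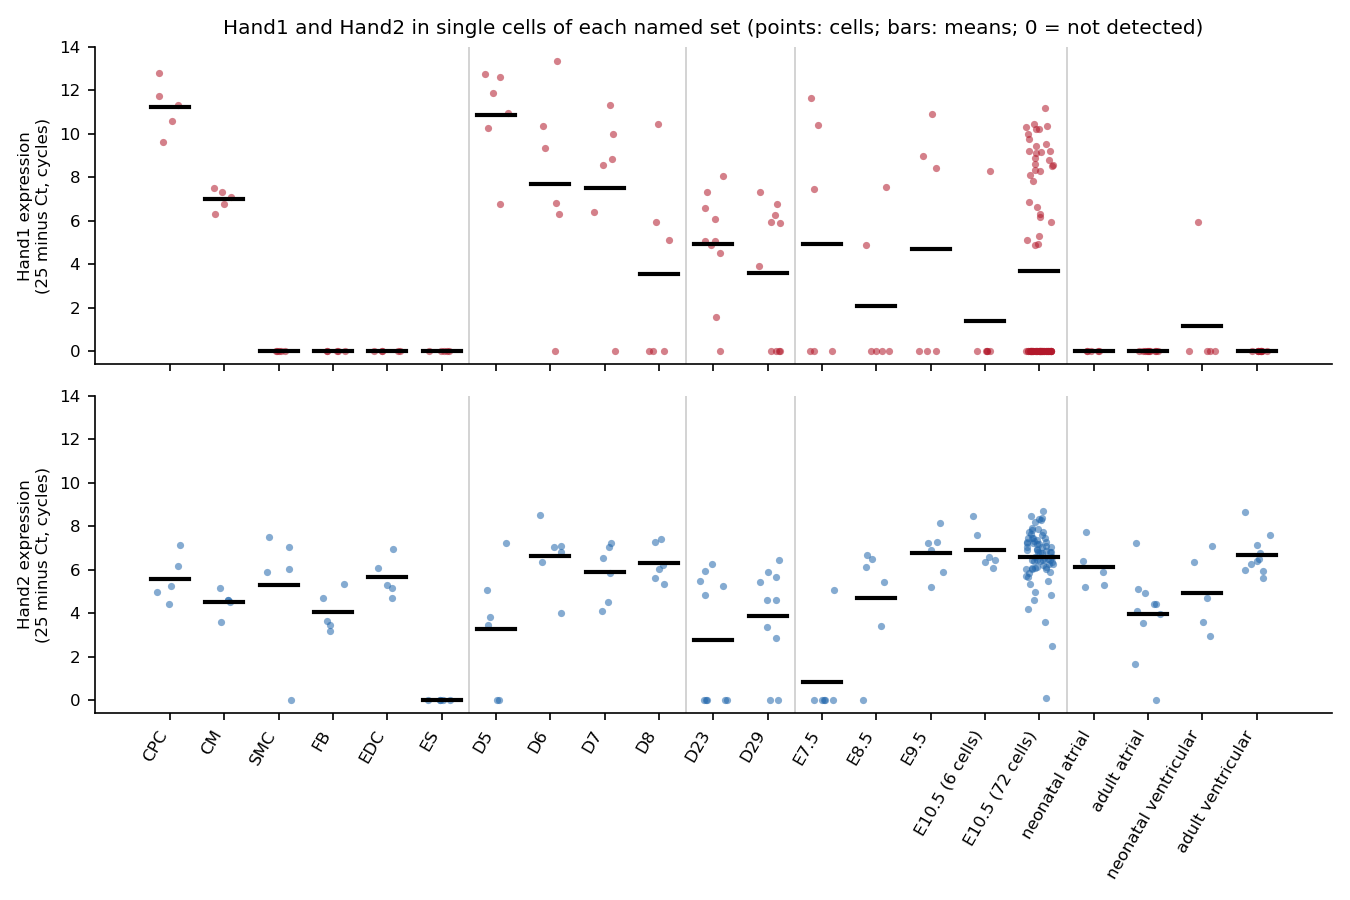
Expression of Hand1 (top) and Hand2 (bottom), as 25 minus Ct in cycles, in each cell of the 21 named sets; points are cells, bars are means, and 0 is not detected. Hand1 was highest in CPC and D5 cells and lay at 0 in 29 of 30 heart cells, whereas Hand2 was at 0 in all ES cells and in 5 of 6 E7.5 cells and was detected in 29 of 30 heart cells.

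Hand1 stood at its highest means in the CPC cells and on D5, D6 and D7, and at 0 in 7 of the 21 sets. Its mean was 11.22 ± 1.19 (SD, n = 5) in CPC cells, 10.88 ± 2.23 (SD, n = 6) on D5, 7.70 ± 4.56 on D6 and 7.54 ± 4.04 on D7, with n = 6 for each day. It was 7.0 ± 0.46 (SD, n = 5) in CM cells, and the remaining sets with any Hand1 averaged from 1.19 to 4.93. The 7 sets without Hand1 were SMC, FB, EDC, ES, neonatal atrial, adult atrial and adult ventricular cells. In a set of 5 cells a count of 0 allows a share of detecting cells of up to 52.2% (exact Clopper-Pearson interval at 95%), and in a set of 10 up to 30.8%, for counting error only.

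Hand2 had a flatter profile. Its mean was highest at E10.5 within the stage series, at 6.93 ± 0.91 (SD, n = 6), followed by E9.5 at 6.78 ± 1.06 (SD, n = 6) and adult ventricular cells at 6.70 ± 0.91 (SD, n = 10). Its lowest means were 2.78 ± 2.95 (SD, n = 10) on D23, 0.84 ± 2.06 (SD, n = 6) at E7.5 and 0 in the 5 ES cells. When the 21 sets were put in order of their mean, 0 of the 20 neighbouring pairs differed by more than both sets' SDs, for either gene. Over 20 sets without repeated cells, the set means of Hand1 and Hand2 had a Pearson correlation of 0.05 and a Spearman correlation of 0.003. These sets shared assays and instrument and differed in the number of assays detected, so the coefficients are descriptions.

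Among the reference cells, Hand1 was found in the CPC and CM cells, whereas Hand2 was found in every type except ES. Hand1 read 11.76, 9.64, 11.33, 10.59 and 12.78 in the 5 CPC cells and 7.32, 6.76, 6.34, 7.10 and 7.51 in the 5 CM cells. The lowest CPC cell lay above the highest CM cell, so the sets did not overlap, and the means differed by 4.22 cycles. Both Nkx2.5 assays, lower in CPC cells, did not overlap either. The share of all assays without overlap was not counted. Hand2 read 6.18, 4.42, 5.0, 5.24 and 7.13 in CPC and 4.63, 4.59, 3.60, 5.17 and 4.50 in CM cells, which overlapped, with a difference of means of 1.10 cycles. All 10 of these cells carried both transcripts.

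CPC cells exceeded CM cells by 1 cycle or more on 40.5% of all 42 assays and fell short of them by as much on 31%, so calls in either direction were common. Of the 10 partner factor assays, 3 were higher in CPC cells (Gata4-1, Isl1-2 and Mesp1) and 3 lower (both Nkx2.5 assays and Mef2C-2), and their median difference was -0.37 against 0.00 over all assays. The call for Mesp1 rested on CPC-5, the single cell of both sets that detected it. Nkx2.5-1 was detected in 0 of 5 CPC and 5 of 5 CM cells. Actb, the housekeeping assay, averaged 11.53 in CPC and 6.30 in CM cells. With each cell centred on its Actb value, the difference turned to -1.01 for Hand1 and to -4.13 for Hand2, and the assays called higher and lower went from 17 and 13 to 12 and 20. Without CPC-5 the uncentred difference of Hand2 was 0.71, and over medians it was 0.65, both under 1 cycle.

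The other reference types had Hand2 without Hand1. Hand2 read 4.69, 5.36, 3.45, 3.66 and 3.17 in the FB cells and 5.17, 6.09, 5.31, 4.71 and 6.98 in the EDC cells, where the endothelial adhesion gene Cdh5 was detected in 5 of 5. In the SMC cells it read 5.89, 6.01, 7.04, 0 and 7.52. Both assays were at 0 in all 5 ES cells, although Actb was detected in each of them. Detection of Hand2 was thus shared by cells with and without Tnnt2-1, which was at 0 in all FB and EDC cells. Some FB and SMC cells did detect a cardiomyocyte assay, among them FB-1 and FB-2 with Myl2 (4.98 and 4.23) and SMC-5 with Tnnt2-1 (7.41).

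**Figure D2:**
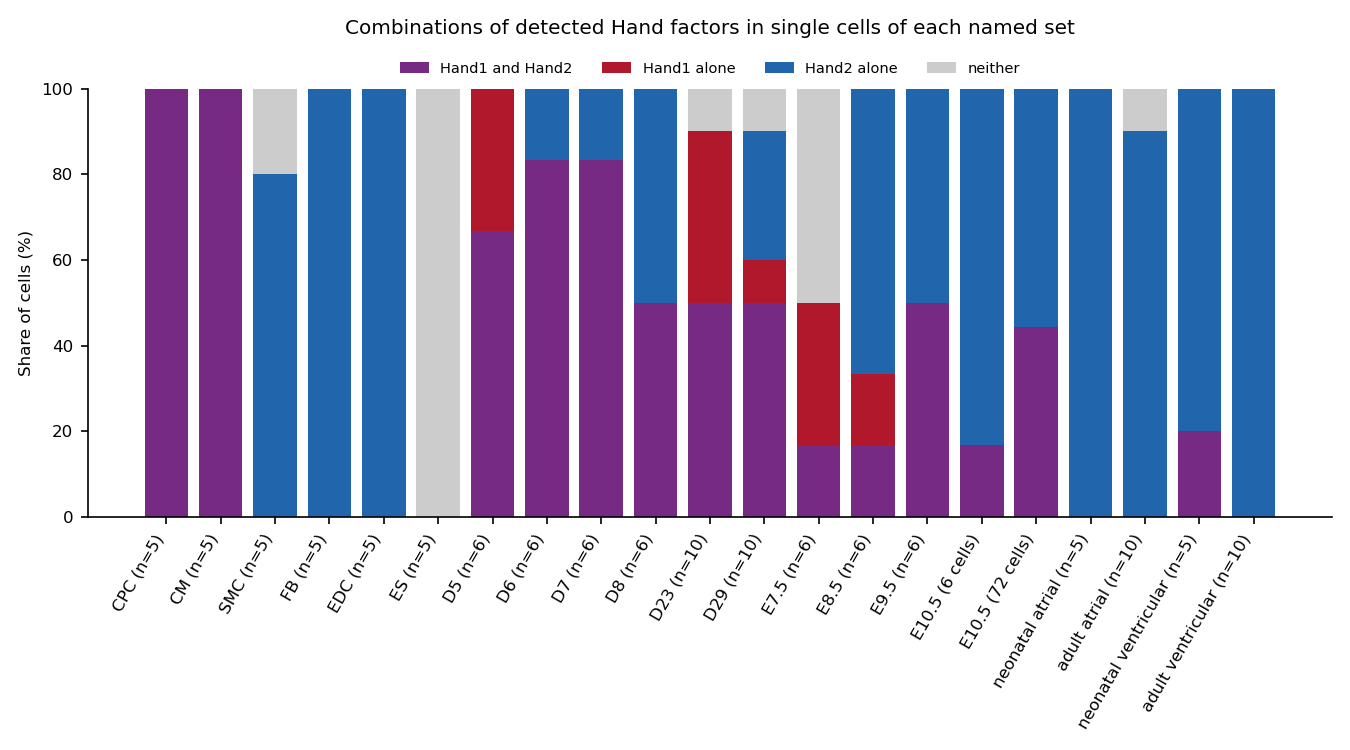
Share of cells (%) in each named set that detected Hand1 and Hand2, Hand1 alone, Hand2 alone or neither. Cells with Hand1 alone appear on D5, D23 and D29 and at E7.5 and E8.5, and heart cells have Hand2 alone in 28 of 30.

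Combining both transcripts per cell gave 73 of 192 distinct cells with both, 97 with Hand2 alone, 10 with Hand1 alone and 12 with neither. In percent these were 38%, 50.5%, 5.21% and 6.25%. The 10 cells with Hand1 alone were 2 D5, 4 D23, 1 D29, 2 E7.5 and 1 E8.5 cells. The 12 cells with neither were the 5 ES cells, 3 E7.5 cells and 1 cell each of SMC, D23, D29 and adult atrial origin. Detected Hand1 values lay well clear of the limit, with 2 of the 83 below 4 cycles, at 1.60 and 3.95. Of the 170 cells with Hand2, 18 were below 4 cycles, and the lowest were at 0.09 and 1.69.

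From D5 to D8 the means of both genes moved in opposite directions. Hand1 was 7.30 cycles lower and Hand2 3.05 cycles higher on D8 than on D5, and the number of cells detecting each went from 6 to 3 for Hand1 and from 4 to 6 for Hand2, of 6 per day. Over all assays 26.2% were called lower and 50% higher, so that neither direction was rare in this comparison. Both genes' cells overlapped between the days.

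Hand1 read 11.88, 12.77, 12.63, 10.96, 10.30 and 6.77 in the 6 D5 cells. On D6 it read 9.37, 13.34, 6.83, 10.38, 6.31 and 0, and on D7 11.33, 10.02, 8.59, 8.84, 0 and 6.43. On D8 it read 5.11, 5.95, 10.45, 0, 0 and 0. Cells without Hand1 first appeared on D6, and D8 held as many cells without it as with it. Where it was detected on D8 it averaged 3.71 cycles less than on D5, so the lower mean held both fewer detecting cells and lower values among them, apart from cell D8-3, which lay within the range of the D5 cells.

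Hand2 read 3.85, 7.25, 3.48, 0, 5.09 and 0 in the D5 cells. On D6 it read 3.99, 7.08, 8.5, 7.06, 6.80 and 6.35, and on D7 4.11, 5.85, 7.23, 6.53, 4.54 and 7.06. On D8 it read 7.29, 6.24, 7.44, 5.37, 6.02 and 5.61. Every cell from D6 on had Hand2, and the spread narrowed from an SD of 2.86 on D5 to 0.86 on D8. Among detecting cells alone the Hand2 difference between D8 and D5 was 1.41 in place of 3.05, since the 2 D5 cells at 0 then drop out. The combinations went accordingly from 4 cells with both and 2 with Hand1 alone on D5 to 3 with both and 3 with Hand2 alone on D8.

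The cells themselves differed between these days in more than the HAND factors. Actb averaged 12.66 ± 0.46 on D5 and 7.09 ± 1.59 on D8 (SD, n = 6 each), D5 cells detected 13 to 16 assays and D8 cells 20 to 31, and the part of these shifts in the result was not tested. Centred on Actb, the difference was -3.72 for Hand1 and 7.86 for Hand2, while the median of all assays moved from 1.15 to 2.73 and the assays called higher and lower from 21 and 11 to 26 and 4. Undetected values then took the lowest centred detected value of any assay. Hand1 was detected in 3 of 6 D8 cells and Hand2 in 4 of 6 D5 cells, so the centred differences rested partly on filled values. Of the 10 partner factor assays, 8 were called higher on D8 and 1 lower (Mesp1), with a median difference of 3.01. Mef2C-2 and Nkx2.5-1 were detected in 0 of 6 D5 and 6 of 6 D8 cells, and Mesp1 in 3 of 6 and 0 of 6.

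**Figure D3:**
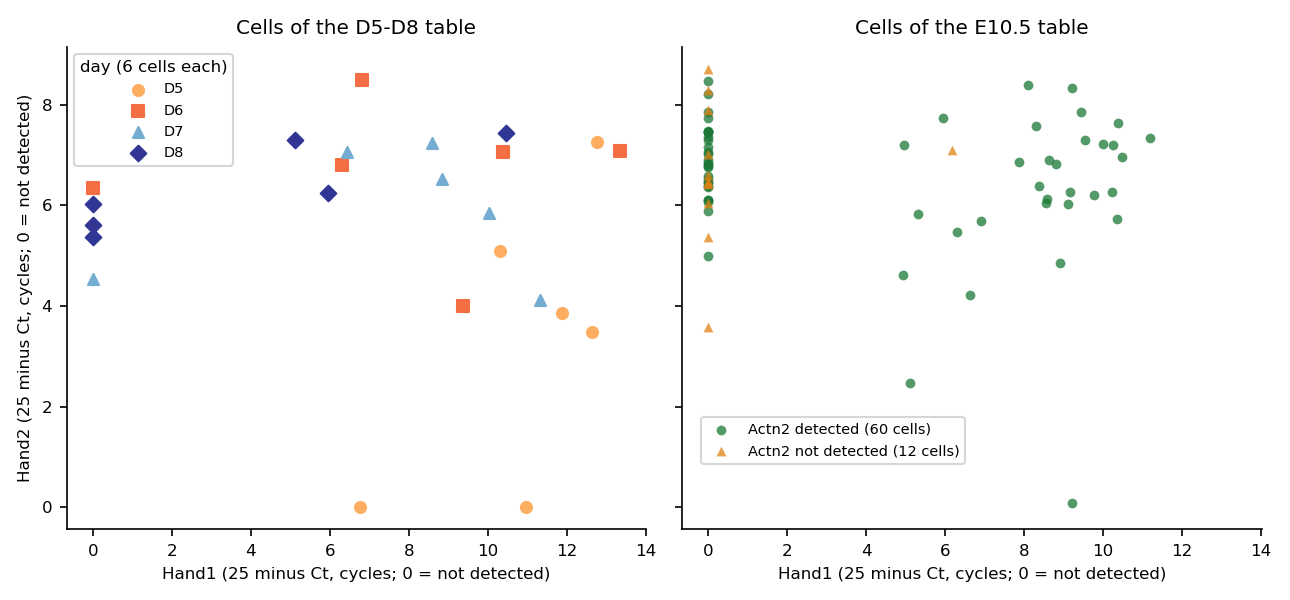
Hand2 against Hand1 in each cell of the D5-D8 table (left, by day) and of the E10.5 table (right, by detection of Actn2), both as 25 minus Ct in cycles with 0 as not detected. D5 cells lie to the right, with 2 at a Hand2 of 0, D8 cells have Hand2 above 5 throughout, and the E10.5 cells split into 40 at a Hand1 of 0 and 32 above 4.9.

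In the 5 cells of the D5-D8 table without Hand1 (1 D6, 1 D7 and 3 D8 cells) Tnnt2-1, Actn2, Myh6-1 and Nkx2.5-1 were all detected, with Tnnt2-1 at 9.51 or more. Among the 19 cells with Hand1, Tnnt2-1 was detected in 13, Actn2 in 9 and Nkx2.5-1 in 8. This count pools the days, and all 6 D5 cells, nearly all without these assays, are among the 19. On D8 alone the 3 cells with and the 3 without Hand1 all detected Tnnt2-1, Actn2, Myh6-1 and Nkx2.5-1. The cells with Hand1 had the higher means, 11.75 against 10.61 for Tnnt2-1, 9.61 against 7.65 for Actn2 and 10.02 against 8.38 for Nkx2.5-1. They also detected more assays, 31, 31 and 28 against 20, 21 and 23. Their Actb read 8.6, 6.9 and 9.2, against 4.8, 6.7 and 6.4 in the cells without Hand1. The part of these shifts in the higher means was not tested. Pooled over the days, Pdgfra, a receptor of mesodermal cells, was detected in 16 of the 19 and 3 of the 5, and Flk-1, the vascular receptor Kdr, in 12 of the 19 and 1 of the 5.

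Both cells without Hand2 were D5 cells that lacked Tnnt2-1, Actn2, Myh6-1 and Nkx2.5-1. The D5 cells D5-2 and D5-5, which had Hand2, lacked all of these assays as well. D5-6, which was without Hand2, had the lowest Hand1 of its day, 6.77, and was the single cell of this table with Cdh5, at 6.23. These splits follow from the cells' own values and were examined after they were seen.

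In the later D23 and D29 cells Hand1 was still detected in 15 of 20. The lowest, median and highest Hand1 values were 0, 5.08 and 8.08 on D23 and 0, 4.93 and 7.32 on D29 (n = 10 each). Those of Hand2 were 0, 2.41 and 6.25 on D23 and 0, 4.61 and 6.43 on D29. The days overlapped almost entirely for both genes.

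D29 differed from D23 by -1.31 cycles for Hand1 (4.93 ± 2.48 to 3.62 ± 3.23, SD, n = 10 each) and by 1.11 cycles for Hand2 (2.78 ± 2.95 to 3.89 ± 2.33). Of all assays 7.14% were called lower and 38.1% higher on D29, and 7 of the 10 partner factor assays were called higher and 0 lower. The number of detecting cells went the same way as the means, from 9 to 6 for Hand1 and from 5 to 8 for Hand2. Among detecting cells alone the sign turned for both, to 0.56 for Hand1 and -0.69 for Hand2. Leaving out 1 cell took the difference under 1 cycle for both genes, to -0.91 and 0.80 at the nearest to 0, and a limit of Ct 23 took it to -0.75 and 0.51. The median over cells gave -0.15 for Hand1 and 2.20 for Hand2.

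On D23 Hand2 was either clearly present or undetected, with 5 cells from 4.82 to 6.25 and 5 cells at 0. All 5 cells with Hand2 on D23 also had Hand1, among them D23-5, whose Hand1 of 1.60 was the lowest detected value of all distinct cells. Across both days, 10 of 20 cells had both transcripts, 5 Hand1 alone, 3 Hand2 alone and 2 neither. Tnnt2-1, Actn2, Myh6-1 and Nkx2.5-1 were detected in all 20 cells. Their detection therefore could not set apart the 7 cells without Hand2 or the 5 without Hand1. Myl2 was at 0 in D29-7 and in D29-10, the latter without Hand1. On D23 the cells without Hand2 detected 21, 21, 17, 17 and 17 assays, and those with it 21, 22, 20, 21 and 22. On D29 the cells without Hand2 detected 24 and 25, and those with it 17 to 27. D23-9, with neither transcript, had the lowest Tnnt2-1 and Actn2 of the 20, 6.61 and 5.11. The part of these differences in the detection of Hand2 was not tested.

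In the embryo stages Hand2 was nearly undetected at E7.5 and present in every cell from E9.5. Hand2 read 0 in 5 of the E7.5 cells and 5.05 in the other, E7.5-5. At E8.5 it read 0, 3.41, 6.51, 6.14, 6.67 and 5.44, at E9.5 5.90, 6.89, 7.24, 5.21, 8.17 and 7.30, and at E10.5 8.48, 7.59, 6.46, 6.37, 6.58 and 6.10. No E10.5 cell was as low as any E7.5 cell, and the means differed by 6.09 cycles. Both Mef2C and both Nkx2.5 assays did not overlap between these stages either, and the share of all assays without overlap was not counted. Over all assays 57.1% were called higher and 21.4% lower at E10.5 than at E7.5.

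Hand1 was variable at every embryo stage. It read 0, 10.41, 11.66, 0, 7.47 and 0 at E7.5, and 4.89, 0, 0, 7.57, 0 and 0 at E8.5. At E9.5 it read 8.97, 10.92, 0, 0, 8.44 and 0, and at E10.5 0, 8.31, 0, 0, 0 and 0. Every stage held cells at 0 and cells above 7 cycles, so the stages overlapped. The mean at E10.5 was 3.54 cycles below that at E7.5, with 1 against 3 of 6 cells detecting it. Without E7.5-3 the difference was -2.19, and with the 66 E10.5 cells that did not recur in place of these 6 it was -1.01, at 3.91 ± 4.37 (SD, n = 66). Leaving out the cells with few detected assays gave -6.00.

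Of the partner factor assays 7 were called higher and 0 lower at E10.5 than at E7.5, with a median difference of 3.55 against 2.64 over all assays. Mef2C-2 was detected in 0 of 6 E7.5 and 6 of 6 E10.5 cells and Nkx2.5-1 in 3 of 6 and 6 of 6. The Actb mean was 11.5 ± 0.72 in the E7.5 cells and 6.70 ± 1.06 in the E10.5 cells (SD, n = 6 each), and centring on it gave -2.24 for Hand1 and 9.80 for Hand2. In that centring undetected values took the lowest centred detected value of any assay. Hand2 was detected in 1 of 6 E7.5 cells, so the 9.80 rested largely on filled values. Hand1 was detected in 3 of 6 E7.5 and 1 of 6 E10.5 cells.

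The early embryo cells also differed in type. Cdh5 was detected in 3 of 6 E7.5 cells, among them E7.5-5, the single E7.5 cell with Hand2, in which Hand1 read 7.47, Cdh5 8.89 and Pecam1, another endothelial gene, 5.65. The other Hand1 cells of E7.5, cells 2 and 3, had no Cdh5. Tnnt2-1 was detected in none of the 6 E7.5 cells. At E8.5 cells 1 and 2 had Cdh5 at 12.12 and 11.43, the former with Hand1 alone and the latter with Hand2 alone at the lowest level of the stage, 3.41. The other 4 E8.5 cells had no Cdh5 and had Hand2 from 5.44 to 6.67, with Hand1 in 1 of them. The part of these cell types in the differences between stages was not tested.

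Culture and embryo were set side by side at 2 points, D5 with E7.5 and D8 with E9.5, a pairing that the labels do not make. Hand1 was 5.96 cycles higher on D5 than at E7.5, with 6 and 3 of 6 cells detecting it, and Hand2 was 2.44 cycles higher, with 4 and 1 of 6. Over all assays 28.6% were called higher and 19% lower on D5. Among detecting cells alone the Hand1 difference was 1.04, so most of the difference lay in the 3 E7.5 cells without it, and after leaving out cells with few detected assays it was 3.50. The Hand2 difference was 1.44 at a limit of Ct 23 and 3.66 over medians, 0.89 with cells centred on Actb and 1.24 with cells centred on their median detected assay, and on Actb the assays called higher and lower were 5 and 7 in place of 12 and 8.

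Of the partner factors, D5 cells had Mesp1 higher than E7.5 cells and both Nkx2.5 assays lower, with the other 7 assays within 1 cycle. Nkx2.5-1 was detected in 0 of 6 D5 and 3 of 6 E7.5 cells, and Mesp1 in 3 and 1.

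D8 and E9.5 cells matched in their combinations. Each set had 3 cells with both transcripts and 3 with Hand2 alone. The difference of means was -1.14 for Hand1 (3.58 ± 4.33 and 4.72 ± 5.24, SD, n = 6 each) and -0.46 for Hand2 (6.33 ± 0.86 and 6.78 ± 1.06), both smaller than the spread between cells. Of all assays 57.1% were called lower and 4.76% higher on D8. Of the partner factor assays 7 were called lower, namely both assays each of Gata4, Nkx2.5 and Mef2C and that of Tbx5, and Isl1-2 was called higher. Among detecting cells alone the Hand1 difference was -2.27, and leaving out 1 cell moved it between -2.51 and 0.10, the latter without E9.5-2, whose Hand1 was 10.92. Medians gave -0.93 for Hand2, and leaving out 1 cell moved its difference between -0.77 and -0.18. Centring on Actb brought the Hand1 difference to -0.89 and on the median detected assay to -0.67. Centring turned the Hand2 difference to 1.32 by Actb and to 1.09 by the median detected assay, where 7 and 5 assays were called higher and 10 and 10 lower, in place of 2 and 24.

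The 72-cell E10.5 table gave the largest view of the combinations. Hand2 was detected in 72 of 72 cells, with a lowest, median and highest value of 0.09, 6.80 and 8.71. It was 1 of 3 assays found in every cell, beside Actb and the intermediate filament gene Vim, and its SD between cells, 1.35, was the smallest of the 3 (1.93 for Actb and 1.44 for Vim). Hand1 was detected in 32 of 72 cells (44.4%, exact 95% interval 32.7 to 56.6%), with values from 4.92 to 11.18 and a median of 8.72 among them. No value fell between 0 and 4.92, so detecting and other cells stood apart. Hand1 without Hand2 was seen in 0 of 72 cells, so its share could be up to 4.99%. Without the 6 repeated cells, 31 of 66 (47%) had both.

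Hand2 was found there in cells of more than one type. Of the 72 cells, 5 lacked Tnnt2-1, and in all 5 Cdh5 was 10.1 or more and Hand2 between 6.05 and 8.29. One of these 5, cell 61 of the table, also carried Hand1, at 6.17, with 0 of 10 cardiomyocyte assays detected. The lowest Hand2 value, 0.09, was in a cell with Hand1 at 9.22 and Tnnt2-1 at 10.95. These cells were singled out after their values were seen.

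**Figure D4:**
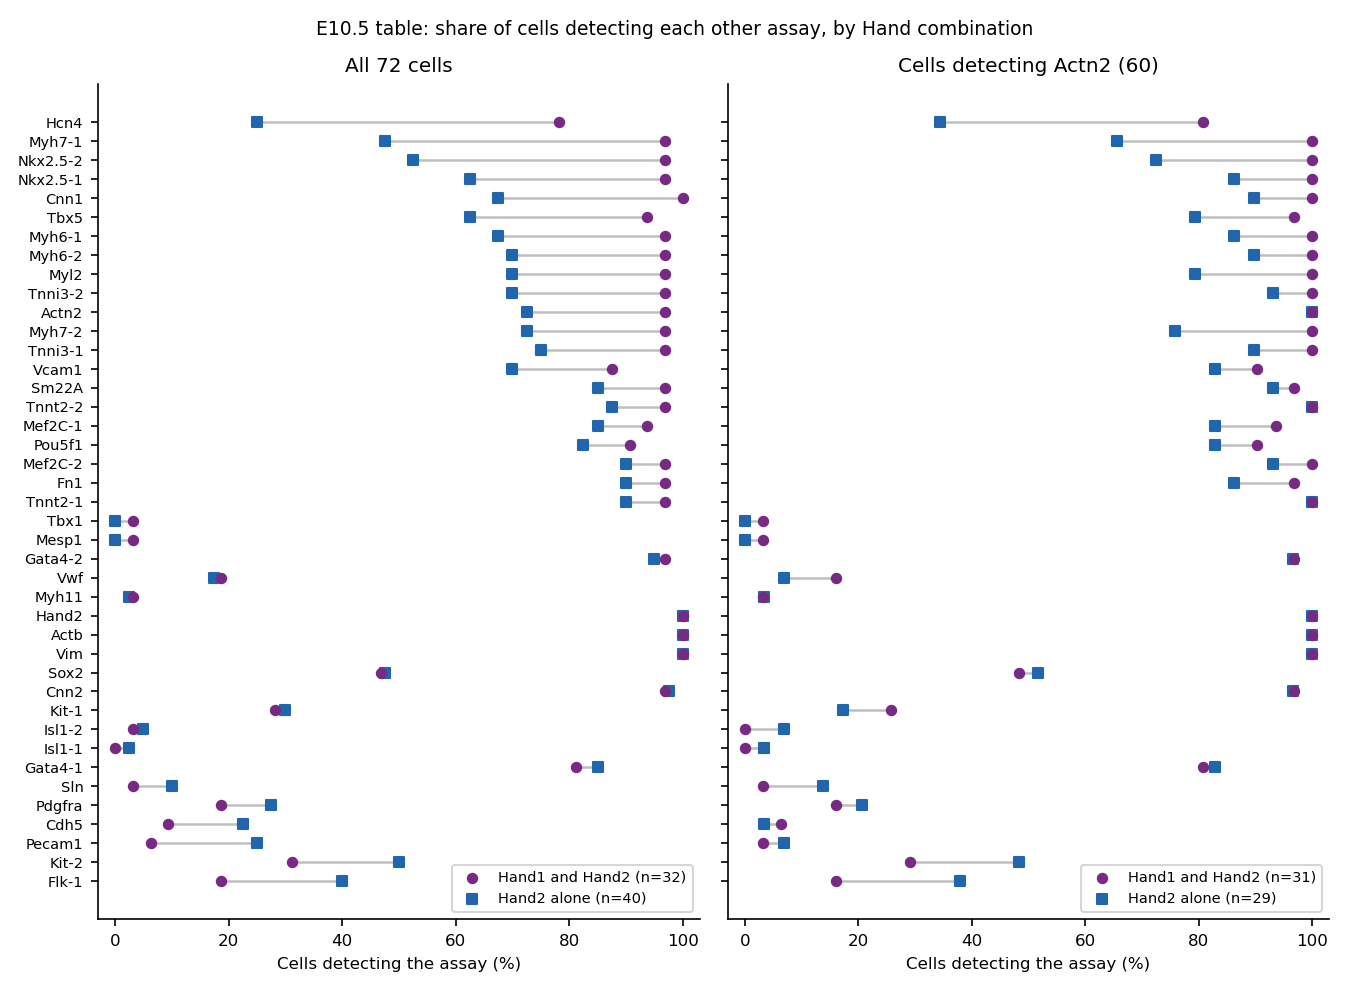
Share of cells (%) detecting each assay other than Hand1 in the E10.5 table, for cells with both HAND transcripts (circles) and with Hand2 alone (squares), in all 72 cells (left) and in the 60 cells with Actn2 (right). Hcn4 and Myh7-1 show the widest gaps in both panels.

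Cells with both transcripts and cells with Hand2 alone differed in several other assays. The pacemaker channel gene Hcn4 was detected in 25 of 32 cells with both (78.1%) and in 10 of 40 with Hand2 alone (25%), at 3.84 ± 2.35 and 0.98 ± 1.75 (SD between cells). Myh7-1, an assay of the embryonic ventricular myosin heavy chain, was detected in 96.9% and 47.5%, Nkx2.5-2 in 96.9% and 52.5%, Nkx2.5-1 in 96.9% and 62.5%. The smooth muscle gene Cnn1 was detected in 100% and 67.5% and Tbx5 in 93.8% and 62.5%. These were the assays with shares at least 30 percentage points apart, beside Hand1 itself, whose split defines the groups. The other Myh7 assay, Myh7-2, came under 30 points, at 96.9% and 72.5%, though its mean was 5.19 cycles higher, beside 5.14 for Myh7-1. Of all 42 assays 16.7% were higher by the 30-point rule and 0.0% lower in the cells with both.

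By the 1-cycle rule 50% of assays were higher and 9.52% lower in cells with both transcripts. Among the partner factor assays 5 of 10 were higher (both Nkx2.5, both Mef2C and Tbx5) and 0 lower, with a median difference of 0.64 against 0.95 over all assays. Both Gata4 assays, both Isl1 assays and Mesp1 differed by under 1 cycle. Hand2 itself was 6.27 ± 1.68 in the 32 cells with Hand1 and 6.82 ± 0.96 in the 40 without, a difference of -0.55, smaller than either SD. Within the 32 cells the correlation of the 2 genes' values was 0.26 (Pearson) and 0.30 (Spearman), over cells that shared a table and differed in the number of assays detected.

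The make-up of these groups differed too. Cells with both detected 28.7 ± 2.57 assays and cells with Hand2 alone 23.5 ± 4.69 (SD between cells), while Actb averaged 8.10 and 8.33. Of 10 cardiomyocyte assays the cells with both detected 9.69 on average and the others 7.23. Of 4 endothelial assays they detected 0.53 and 1.05, with a summed level from 0 to 30.4 and from 0 to 40.3. Cdh5 was found in 3 of the 32 and 9 of the 40. The part of these differences in the Hand1 split was not tested. The comparison was also made within the cells that had Actn2, a sarcomere gene.

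Among the 60 cells with Actn2, 31 had Hand1 and 29 did not. There Hcn4 was detected in 80.6% and 34.5% and Myh7-1 in 100% and 65.5%. These 2 assays and Hand1 were the only ones of the 42 still 30 points apart, 7.14% of all assays. Myh7-2, the other assay of the Myh7 gene, was again under 30 points, at 100% and 75.9%, though its mean was 4.40 cycles higher, beside 4.02 for Myh7-1. Myl2 again had the largest difference of means after Hand1, 4.85 cycles. The shares of Nkx2.5-1, Nkx2.5-2, Cnn1 and Tbx5 came under 30 points. By the 1-cycle rule 45.2% of assays were higher and 2.38% lower, including the 5 partner factor assays called before. Even there the cells with both detected more assays, 28.9 ± 2.06 against 25.6 ± 3.29. The make-up still differed: of 10 cardiomyocyte assays every cell with both detected 10, and cells with Hand2 alone 8.79 on average, at the lowest 3. The summed cardiomyocyte level was 109.6 ± 7.78 against 87.4 ± 27.5 (SD between cells). The part of these differences in the shares was not tested.

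Read from the other assays, Hand1 was present in 25 of 35 cells with Hcn4 (71.4%, exact interval 53.7 to 85.4%) and in 7 of 37 without (18.9%, 7.96 to 35.2%). It was present in 31 of 60 cells with Actn2 and 1 of 12 without, and in 31 of 59 cells with Myl2 and 1 of 13 without. With Tbx5 it was 30 of 55 against 2 of 17. With Cdh5 it was 3 of 12, and 29 of 60 in its absence. Sln, an atrial gene, was detected in 5 cells, of which 1 had Hand1. Where Hand1 was detected it averaged 8.82 ± 1.63 in the 25 cells with Hcn4 and 6.58 ± 1.32 in the 7 without. Those 7 cells detected 24, 28, 30, 26, 26, 26 and 20 assays, beside a mean of 28.7 in all 32 cells with Hand1. The last of them was cell 61, with Cdh5 and without Tnnt2-1. The part of these differences in the lower Hand1 was not tested.

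**Figure D5:**
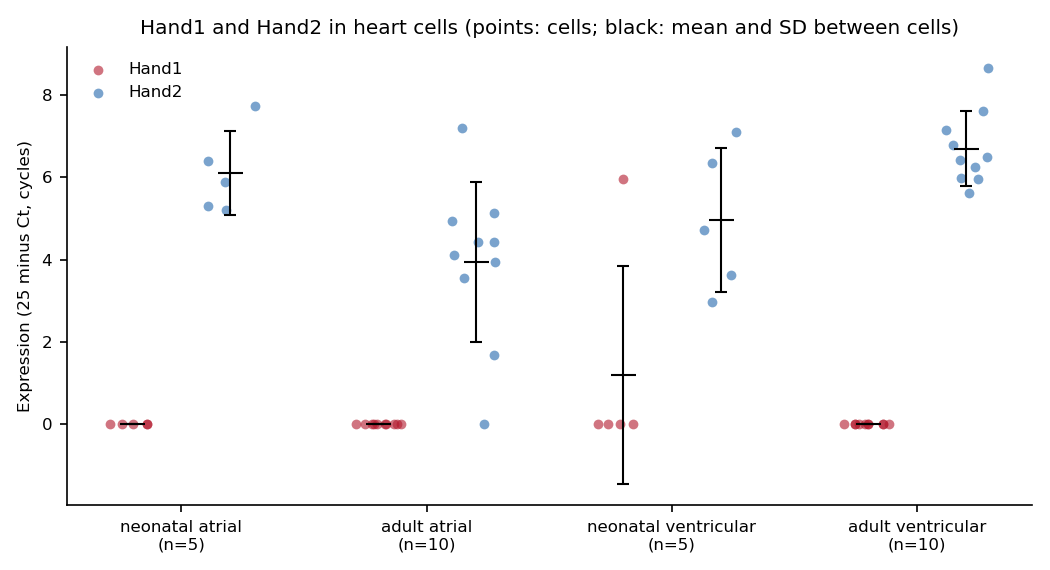
Hand1 and Hand2 in neonatal and adult atrial and ventricular cells, as 25 minus Ct in cycles; points are cells, black marks the mean and SD between cells, and 0 is not detected. Hand1 lies at 0 except in 1 neonatal ventricular cell, and adult ventricular cells lie above all but 1 adult atrial cell in Hand2.

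In heart cells Hand2 was detected almost throughout and Hand1 hardly at all. Hand1 was detected in 1 of 30 heart cells (3.33%, exact 95% interval 0.08 to 17.2%), the neonatal ventricular cell Neo-ventricular-3, at 5.95. That cell had the lowest Hand2 of its set, 2.98. Hand2 was detected in 29 of 30, the exception being 1 adult atrial cell.

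Hand2 read 5.88, 5.21, 5.31, 6.40 and 7.73 in the neonatal atrial cells and 6.34, 7.11, 2.98, 4.72 and 3.62 in the neonatal ventricular cells. The lowest, median and highest values were 0, 4.27 and 7.21 in the 10 adult atrial cells and 5.61, 6.46 and 8.67 in the 10 adult ventricular cells. From neonatal to adult, the Hand2 mean was lower in atrial and higher in ventricular cells. The ages overlapped in both chambers, and the contrast between the chambers was not tested.

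In atrial cells the adult mean was 2.16 cycles lower (3.94 ± 1.95, SD, n = 10, against 6.11 ± 1.03, SD, n = 5), where 35.7% of all assays were called lower and 7.14% higher. Centred on Actb, which averaged 4.96 in adult and 6.83 in neonatal atrial cells, this difference was -0.62, under 1 cycle. The counts of assays called higher and lower were then 13 and 13 in place of 3 and 15, and centred on the median detected assay they were 1 and 22. Actb read 9.32, 4.91, 4.96, 4.55 and 10.44 in the neonatal atrial cells. Only the first and last of them detected Pdgfra, at 4.2 and 9.2. The part of these cells in the centred difference was not tested. In ventricular cells the adult mean was 1.74 cycles higher (6.70 ± 0.91, SD, n = 10, against 4.95 ± 1.76, SD, n = 5), where 31% were called higher and 16.7% lower. Centred on the median detected assay it was 0.47, with 3 assays called higher and 11 lower in place of 13 and 7. The -1.19 of Hand1 in the latter comparison rested on Neo-ventricular-3 and was 0 without it and over medians, and -0.79 at a limit of Ct 23.

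Of the 10 partner factor assays, 4 were called lower in adult atrial cells (both Gata4 and both Mef2C) and 0 higher. In adult ventricular cells 2 were called higher (Nkx2.5-2 and Tbx5) and 2 lower (Gata4-2 and Mef2C-2). Tbx5 averaged 6.35 ± 1.13 in adult (SD, n = 10) and 4.40 ± 0.93 in neonatal ventricular cells (SD, n = 5).

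Between chambers the adult cells were the more distinct in Hand2. Adult atrial cells averaged 2.75 cycles less than adult ventricular cells, and 9 of the 10 atrial cells lay below the lowest ventricular cell, 5.61. The exception was Adult-atrial-7, at 7.21, which was also the single adult atrial cell with Hcn4, at 9.29, a coincidence seen after the values. Over all assays 23.8% were called lower and 4.76% higher in atrial cells, and of the partner factors Tbx5 was called higher and Gata4-1 lower. Actb averaged 4.96 in adult atrial and 4.60 in adult ventricular cells, and under both centrings the Hand2 difference stayed between -2.83 and -2.79.

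Neonatal atrial cells averaged 1.15 cycles more Hand2 than neonatal ventricular cells, with overlap, where 35.7% of assays were called higher and 11.9% lower. Centring on Actb turned this to -0.78 and centring on the median detected assay brought it to 0.49, with 7 assays called higher and 18 lower, and 9 higher and 6 lower, in place of 15 and 5. The Actb centring took in Neo-atrial-1 and Neo-atrial-5, whose Actb was 9.32 and 10.44, where the other neonatal atrial cells read 4.55 to 4.96. Without Neo-ventricular-3 the uncentred difference was 0.66, and the Hand1 difference of -1.19 was 0. Over medians that Hand1 difference was 0 too, and at a limit of Ct 23 it was -0.79.

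The late culture cells were set beside the neonatal ventricle. Hand1 averaged 4.27 ± 2.88 (SD, n = 20) in the D23-D29 cells and 1.19 ± 2.66 (SD, n = 5) in neonatal ventricular cells, a difference of 3.08 cycles, with 15 of 20 and 1 of 5 cells detecting it. Hand2 averaged 3.33 ± 2.65 and 4.95 ± 1.76, a difference of -1.62, with 13 of 20 and 5 of 5. Of all assays 11.9% were called higher and 45.2% lower in the D23-D29 cells. Of the partner factor assays 3 were called lower (both Gata4 and Mef2C-2) and 0 higher. Among detecting cells alone the Hand2 difference was 0.17, of the opposite sign, and over medians it was -0.11 for Hand2 and 5.08 for Hand1. With cells centred on Actb the Hand2 difference was -2.60. A limit of Ct 23 gave 2.0 for Hand1 and -0.92 for Hand2.

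The assays whose set means went most like those of Hand1 over 20 sets were Mesp1 (Pearson 0.72), Pdgfra (0.68) and Isl1-2 (0.60), of 41 compared. The least like it were Sln (-0.34), Mef2C-1 (-0.30) and Pecam1 (-0.26). For Hand2 the most like were Mef2C-2 (0.64), Gata4-1 (0.60) and Mef2C-1 (0.60), and the least like were Pou5f1, a pluripotency factor (-0.63), Kit-1 (-0.51) and Pecam1 (-0.33). Mef2C-1 thus stood among the assays most like Hand2 and least like Hand1. Spearman coefficients kept the sign of all 12, but that of Kit-1 was -0.04 and that of Pecam1 with Hand1 -0.04. Mesp1 was undetected in every cell of most sets, so its coefficient rested on few cells. The other Isl1 assay, Isl1-1, had a Pearson correlation of 0.26 with Hand1. The likeness is over set means of 5 to 72 cells and is a description.

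The negative control columns of 6 tables gave no signal on either assay, and the E10.5 table had no control column. In the positive control columns Hand1 was detected at a Ct from 11.39 to 15.21 and Hand2 from 10.39 to 13.92. In the atrial and ventricular tables the positive control's values stood 1 row lower than elsewhere, so that its Hand2 value there, 13.92, equalled that of Hand1 in 3 other tables. The cells of those tables did not follow the shift. Over 6 pairs of assays for 1 gene the mean absolute difference was 1.60 and 1.58 cycles with the names as given, and 8.65 and 6.40 with the names moved by 1 row. Both Nkx2.5 assays were detected in 15 of 15 cells of each table under the given names, which were kept.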

How the data were processed

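Single cells were sorted, lysed and reverse transcribed in one step and read on Fluidigm chips, per the labels' protocols. The authors deposited Ct values, in PCR cycles, where 25 marks no signal as the values show; they are not relative to Actb, which varied between cells. The Ct threshold, cycle number and cell filter were not given in the sources used here. Because Ct ended at 25, weak and absent expression read alike, and differences against an undetected set are lower limits in size.

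Samples were mapped to columns by the number in their titles, and to sets by table and cell name. Expression was 25 minus Ct. Means, SDs between cells, medians, differences of means and shares with exact (Clopper-Pearson) 95% intervals, which cover counting error only, were computed with Python 3.11.15, numpy 2.4.6, scipy 1.17.1 and pandas 2.3.3. No p-value was computed, since each set was 1 sample. Precision was limited by 5 to 72 cells per set. The calculation of differences was checked on simulated data. Both gene symbols matched the RefSeq annotation of GRCm38.p6.

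The members, the 10 partner factor assays (Gata4, Nkx2.5, Mef2C and Isl1 with 2 each, Tbx5, Mesp1) and the comparisons were chosen with earlier results of these data known. Other assays were named by rule: the 3 most and 3 least alike in set means, those 30 points or more apart between E10.5 cells with and without Hand1, and lineage markers. Cells chosen after their values were seen are said to be so.

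Alternatives were values relative to each cell's Actb or to its median detected assay, a limit of Ct 23, means over detecting cells (3 or more per set), medians, a filter that dropped the 6 cells with no Actb signal or with a number of detected assays over 3 median absolute deviations under their table's median and leaving out each cell. Under either centring, undetected values took the lowest centred detected value of any assay, so centred differences with undetected cells rest partly on filled values. The 66 other E10.5 cells, CM cells without repeats and cells with Actn2 were added after the data were seen.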

Additional observations from a re-analysis of the deposited data

Results flagged for a closer look

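In 4 of 40 groups of 5 to 10 cells, 1 cell stood far from the others of its set. The usual chance rate of about 1 in 20 does not apply to these values, because a single detecting cell among cells at 0 stands apart whatever its level, as in 3 of the 4, and sets with every cell at 0 cannot show one. Among the SMC cells, SMC-4 had Hand2 at 0, while the nearest of the other 4 was at 5.89. Among the 6 E7.5 cells, E7.5-5 had Hand2 at 5.05 and the other 5 were at 0. Among the 6 E10.5 cells in the table of stages, E10.5-2 had Hand1 at 8.31 and the other 5 were at 0. Among the 5 neonatal ventricular cells, Neo-ventricular-3 had Hand1 at 5.95 and the other 4 were at 0.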

How the results depend on the processing

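No paired analysis was possible because the labels give no replicate number shared between sets and no test was made. Centring on Actb gave -3.72 for Hand1 and 7.86 for Hand2 in D8 minus D5, 9.80 for Hand2 in E10.5 minus E7.5 and 1.32 for Hand2 in D8 minus E9.5. It turned the sign of Hand2 between neonatal chambers (-0.78) and of both genes in CPC minus CM (-1.01 for Hand1 and -4.13 for Hand2). Centring on the median detected assay gave 1.09 for Hand2 in D8 minus E9.5, and a limit of Ct 23 gave 4.42 for Hand2 in E10.5 minus E7.5. Among detecting cells alone Hand1 differed by -3.71 in D8 minus D5 and by 1.04 in D5 minus E7.5, and the sign turned for D29 minus D23 (0.56 for Hand1, -0.69 for Hand2) and for Hand2 in D23-D29 minus neonatal ventricle (0.17). Leaving out each cell gave -2.51 to 0.10 for Hand1 in D8 minus E9.5. The cause of these shifts was not tested, except that fewer cells enter the means over detecting cells and that centring filled undetected values. Over medians, and without Neo-ventricular-3, Hand1 in adult minus neonatal ventricle and between neonatal chambers went from -1.19 to 0. Differences not named here moved by less than the spread between cells under these settings and the filter on cells, and those that crossed 1 cycle or moved by over 1.5 times are given beside the results. The 4 shares of cells stayed within their intervals. Of all assays, 5 were called higher and 19 lower in D23-D29 minus neonatal ventricle, against 1 and 15 at Ct 23 and 2 and 14 over medians. The small number of cells and the Ct limit bound the precision.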
